A study of Homo sapiens with 6 samples.

Results

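The data described here were the contacts within chromosome 8 in 4 human cancer cell lines, over all pairs of 40-kb bins of the hg19 assembly outside 126 to 131.5 Mb, a stretch around MYC that was left out. Chromosome 8 without this stretch held 3522 bins and 6200481 pairs of bins, out of 75918 bins and 147781476 pairs of bins within chromosomes 1 to 22 and X. Of these, 3068 bins and 4704778 pairs were usable, meaning that both bins held at least 0.25 of the autosome median of read pairs in all 4 lines. The bins were taken by position, whereas the gained and lost segments, the line-specific contacts and their joins were selected on measured values, the coverage and the contact frequency in these same maps. Their levels are therefore a description, and no test was made on them.

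Chromosome 8 is one of the chromosomes most often changed in carcinomas: its short arm, 8p, tends to be lost, its long arm, 8q, tends to be gained, and a stretch at 8p11-p12 is a known site of amplification in breast cancer. Hi-C counts ligated pairs of DNA fragments that lay close together in the nucleus, so that a region present in more copies gives more read pairs, and regions joined by a rearrangement contact each other as if they were neighbours. The same maps show compartments, in which gene-rich active chromatin and gene-poor inactive chromatin each prefer their own kind, and topologically associating domains (TADs), which are separated by boundaries that few contacts cross.

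SW480 and SNU-C1 are colorectal adenocarcinoma lines, HCC1954 is a breast adenocarcinoma line and OE33 is an esophageal adenocarcinoma line, and the labels give no treatment, transgene or edited allele for any of them. Each line comes from a single tumour, and no map of non-cancerous cells was analysed here, so every gain or loss is relative to the other cancer lines. A single map was given for each of OE33, HCC1954 and SNU-C1. For SW480 there were the maps of its replicates 1 and 2 and a pooled map, whose read pairs equalled the sum of both at 100% of 1313215 bin pairs of chromosome 8. The pooled map stands for SW480 below, and the replicates give the only measured spread. With 1 map for each of the other 3 lines, any test between lines would take its spread from SW480 alone, and none was made.

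Read pairs were recovered from the corrected values, and chromosome 8 outside the left-out stretch held 5573672 of them in SW480 (2761299 in replicate 1 and 2810730 in replicate 2), 7772788 in SNU-C1, 4166315 in OE33 and 6002733 in HCC1954. Among the bin pairs with any read pair, 58.7% to 67.6% had exactly 1, so single bin pairs at long distance carry wide intervals. Intervals given below are exact Poisson 95% intervals, and they cover counting error only. The maps of SW480 held few pairs between chromosomes, 1.20% of listed bin pairs against 46.2% to 68.0% in the other lines, so coverage was counted from pairs within chromosomes in every line. The correction also differed: corrected sums within chromosome 8 lay within 5% of their median at 99.97% of bins in SW480 and at 26.9% to 48.1% of bins in the other lines. Line-specific contacts and boundaries were also computed from read pairs without correction, and the part of this difference in the other O/E values and in compartments was not tested. Hi-C holds no expression, and the labelled cell types were not checked against marker genes.

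The arms of chromosome 8 stood at the same level in SW480 and in OE33 and at different levels in SNU-C1 and HCC1954. Coverage was the sum of a bin's read pairs with its own chromosome outside the left-out stretch, divided by the autosome median of the line. That median came from all pairs within chromosomes, so bins near the stretch lack pairs and their coverage is lowered by an amount not tested. Leaving the stretch out took the read pairs of chromosome 8 from 6676907 to 5573672 in SW480 and from 8303158 to 7772788 in SNU-C1. In HCC1954 they went from 6538964 to 6002733 and in OE33 from 4546349 to 4166315. On 8q, median coverage over 2249 usable bins was 0.877 in SW480 (0.880 and 0.875 in the replicates), 1.61 in SNU-C1, 0.940 in OE33 and 1.49 in HCC1954. On 8p, over 819 usable bins, it was 0.897 in SW480 (0.899 and 0.893), 0.717 in SNU-C1, 0.95 in OE33 and 0.518 in HCC1954. Ranked among 39 autosome arms of the same line, 8q was number 3 in SNU-C1 and number 2 in HCC1954, while 8p of HCC1954 was number 38. Both arms of SW480 (29 and 30) and of OE33 (23 and 24) lay below the middle of the order. SW480 and OE33 thus had arms within 0.0193 and 0.0102 of each other in median coverage, whereas 8q was 2.24 times 8p in SNU-C1 and 2.87 times 8p in HCC1954.

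**Figure D1:**
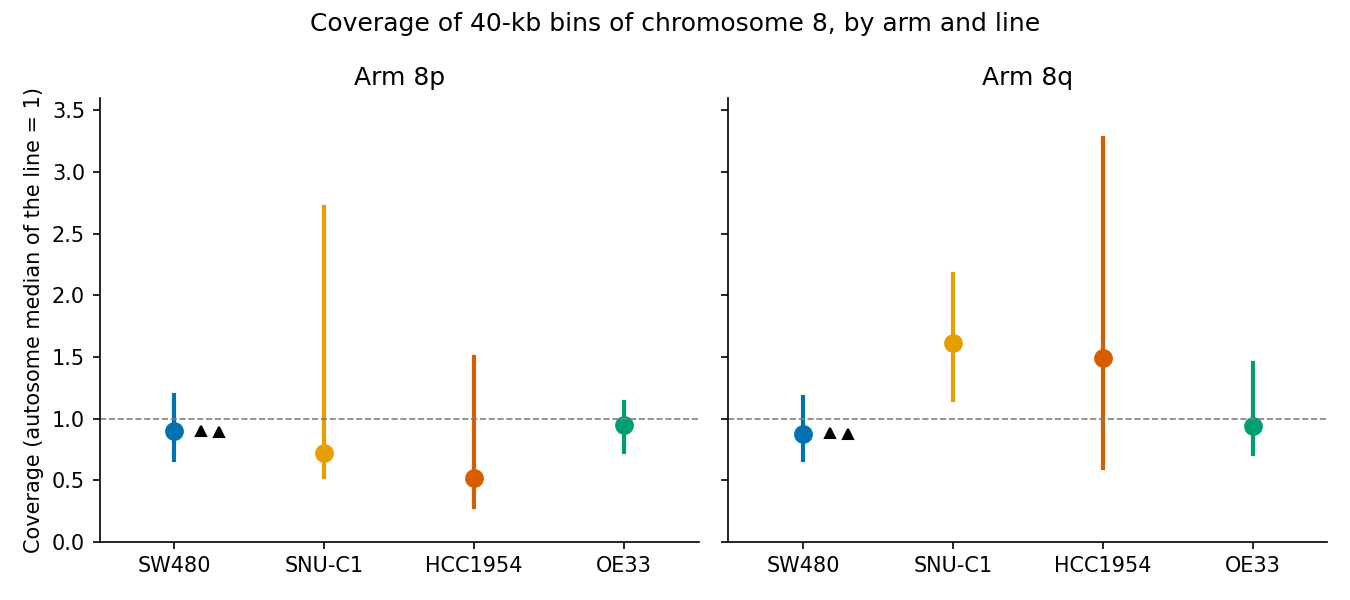
Median coverage of usable 40-kb bins (points) and the range from their 10th to their 90th percentile (lines) on 8p and 8q, where 1 is the autosome median of the line and triangles are SW480 replicates 1 and 2. The 8q medians of SNU-C1 (1.61) and HCC1954 (1.49) lie above those of SW480 (0.877) and OE33 (0.940), and the widest lines are those of SNU-C1 on 8p and of HCC1954 on 8q.

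Coverage was most uneven on 8p of SNU-C1 and on both arms of HCC1954. From the 10th to the 90th percentile of bins, it ran from 0.530 to 2.72 on 8p of SNU-C1. In HCC1954 it ran from 0.286 to 1.502 on 8p and from 0.597 to 3.28 on 8q. The range was narrower on 8q of SNU-C1, from 1.15 to 2.17, and on 8q of OE33, from 0.711 to 1.45. In SW480 coverage ran only from 0.668 to 1.19 on 8p and from 0.661 to 1.18 on 8q. In 67 windows of 2 Mb, the lowest and highest median coverage were 0.258 and 5.64 in HCC1954, 0.487 and 3.01 in SNU-C1, 0.680 and 1.59 in OE33, and 0.466 and 1.16 in SW480. Over the same windows, replicate 1 of SW480 divided by replicate 2 stayed between 0.966 and 1.02. This ratio compares the same window in both replicates, so it gives no scale for the differences between windows of one line. On 8p of SNU-C1, the summary decided the side of 1: relative coverage, the coverage over the median of the other 3 lines, had a median over bins of 0.821 and a mean over bins of 1.34, with a high stretch next to the centromere on an arm that was otherwise low.

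The ends of the chromosome behaved differently in HCC1954. Only bins with at least 0.25 of the autosome median in every map other than HCC1954 were counted here, so none could be at 0 there. Of such bins in the first 6 Mb of 8p, 70 of 135 (51.9%) had no read pair in HCC1954. The median coverage of these bins was 0 in HCC1954, 0.601 in SW480, 0.501 in SNU-C1 and 0.668 in OE33. From 142 Mb to the end of 8q, 33 of 99 bins chosen in this way (33.3%) were at 0 in HCC1954. Their median was 0.209 in HCC1954, against 0.427 in SW480, 0.638 in SNU-C1 and 1.32 in OE33. Along the whole chromosome, 179 bins had no read pair in HCC1954 but some in each of the other 3 lines, 137 on 8p and 42 on 8q. A bin without read pairs and a bin that the authors had removed before correction cannot be told apart in these maps. Because bins under 0.25 of the median in any line were left out, 275 bins were left out for HCC1954 alone, and the lowest parts of its 8p are missing from the counts below.

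In 200-kb blocks, gains covered more of chromosome 8 in SNU-C1 and HCC1954 than in the other lines. A block was called gained at a relative coverage of 1.5 or more and lost at 0.667 or less, and 613 blocks were measured, 164 on 8p and 449 on 8q. SNU-C1 gained 339 blocks (55.3%), where 10% of all autosome blocks were called gained in that line, and 302 of them were on 8q. HCC1954 gained 236 (38.5%) against 12.8% of autosome blocks, 217 on 8q and 19 on 8p. OE33 gained 78 (12.7%), level with its 12.8% over the autosomes, and SW480 gained 31 (5.06%), close to its 5.33%, all on 8p. At a threshold of 2 the order of SNU-C1 and HCC1954 turned, with 17.3% of blocks gained in the first and 26.1% in the second.

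Losses were placed the other way. HCC1954 lost 159 blocks (25.9%) against 12.4% of autosome blocks, and 108 of them were on 8p, where they made up 65.9% of measured blocks. SNU-C1 lost 18 blocks (2.94%) against 5.51%, all on 8p. SW480 lost 301 blocks (49.1%) against 5.7%, and OE33 lost 211 (34.4%) against 9.1%, most of them on 8q. On 8q the own coverage of SW480 and OE33 was near 1, and 2 of the other 3 lines that served as their reference were gained. When the own coverage also had to pass the threshold, which was chosen after seeing the data, lost blocks fell to 3.43% in SW480 and 1.47% in OE33, gained blocks to 0% and 1.79%, and the gains of SNU-C1 and HCC1954 stayed within 1.5 times their main share. At the thresholds, the gained block nearest to 1.5 had a relative coverage of 1.5002 in SNU-C1 and 1.502 in HCC1954, and the nearest block that was not gained had 1.4995 and 1.494.

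**Figure D2:**
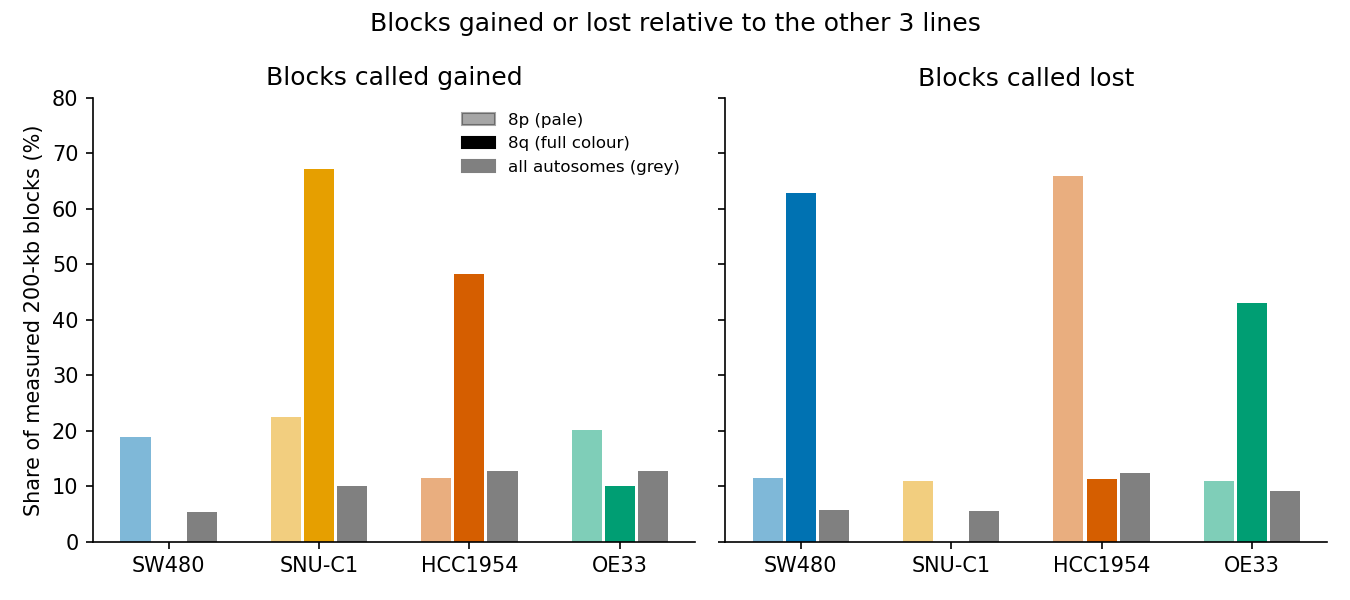
Share of measured 200-kb blocks called gained (left) or lost (right) relative to the other 3 lines, in percent, for 8p (pale bars), 8q (full colour) and all autosomes of the same line (grey). The highest bars are gains on 8q in SNU-C1 and HCC1954, losses on 8p in HCC1954 and losses on 8q in SW480 and OE33.

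With SW480, the line with the narrowest range of coverage on 8q, as the only reference (also chosen after seeing the data), gained blocks numbered 408 in SNU-C1 against 10.6% of autosome blocks, 267 in HCC1954 against 13.7%, and 90 in OE33 against 10.1%. In this setting 369 of 449 blocks of 8q were gained in SNU-C1, 88 in OE33 and 248 in HCC1954, and OE33 lost a single block of chromosome 8. For OE33 this compares with 45 gained blocks of 8q when the median of the other lines was the reference. Its gains over SW480 formed segments at 115.6 to 117.6 Mb (1.68 times SW480), 118.2 to 120.6 Mb (1.74 times), 123.6 to 125.2 Mb (1.66 times) and 131.6 to 142.4 Mb (1.75 times), and most of the last was also gained over the median of the other lines.

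Runs of at least 5 called blocks formed the gained and lost segments. The longest gain of SNU-C1 ran over 44.6 Mb of 8q, from 61.8 to 106.4 Mb, with a median relative coverage of 1.84 and an own coverage of 1.74, where HCC1954 had 1.72, SW480 0.914 and OE33 0.842. Its highest gained segment was on 8p, from 36.4 to 43.4 Mb, at 2.78 relative to the other lines and an own coverage of 2.62. Further gains of SNU-C1 lay at 51.6 to 53.4, 110.4 to 113, 115.8 to 117.2, 121.4 to 123 and 133.4 to 142.4 Mb, with relative coverages from 1.57 to 1.82. A single run of 8p was lost in this line, from 20 to 23.6 Mb, at 0.646 and an own coverage of 0.579. The 7 gained segments of SNU-C1 thus ran from 1.4 to 44.6 Mb in length.

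HCC1954 had more levels. Its gains on 8q rose from 1.97 at 72 to 82.8 Mb (own coverage 1.74) to 2.68 at 88.6 to 109.8 Mb (2.77) and to 3.62 at 116 to 119.8 Mb (5.40), with 2.20 at 110.8 to 115.2 Mb and 1.58 at 123 to 124.6 Mb. On 8p, the gain from 39.6 to 43.4 Mb stood at 2.53 with an own coverage of 2.43. Next to it, the run from 36.4 to 39.2 Mb was lost, at 0.496 and an own coverage of 0.552, and the lost runs of 8p began at 8.2, 14.2, 19.8, 24.2 and 31 Mb, with relative coverages from 0.436 to 0.593. The segment from 133.4 to 142.4 Mb was lost in HCC1954 (0.468, own coverage 0.574) while it was gained in SNU-C1 (1.82, own coverage 1.42) and in OE33 (1.68, own coverage 1.39). At that segment SW480 had a coverage of 0.727, with 0.729 and 0.715 in the replicates. With SW480 as the only reference the loss of HCC1954 there shortened to 138.6 to 141 Mb (0.643), and its lost blocks on 8q fell from 51 to 19.

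SNU-C1 and HCC1954 shared the gain next to the centromere but not its outer edge. From 39.6 to 43.4 Mb both lines were at about the same coverage, 2.41 in SNU-C1 and 2.43 in HCC1954, against 0.821 in SW480 and 0.947 in OE33. From 36.4 to 39.2 Mb the lines parted, with 2.65 in SNU-C1, 0.552 in HCC1954, 1.09 in SW480 and 1.03 in OE33. This edge falls inside the known 8p11-p12 amplicon, and its genes were divided by it.

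In 4 places coverage was at least 5 times the median of the other 3 lines over consecutive bins. The sharpest was in SNU-C1 at chr8:34760001-35040000, 7 bins without a protein-coding gene, where coverage was 9.74 (highest bin 10.8) against 0.656 in SW480 (0.649 and 0.663 in the replicates), 0.391 in HCC1954 and 0.798 in OE33. The 400 kb on its left stood at 0.679 in SNU-C1 and the 400 kb on its right at 3.47, so coverage changed by more than 10 times across its left edge. The other 3 were in HCC1954. They lay at chr8:107480001-107800000 (7.40, highest bin 10.5), over OXR1, a gene of the response to oxidative damage, and ABRA, an actin-binding protein of muscle; at chr8:108080001-108440000 (6.70), over ANGPT1, a ligand of the endothelial receptor TIE2; and at chr8:118840001-119120000 (9.03, highest bin 13.0), inside EXT1, an enzyme of heparan sulfate synthesis. The next highest line at these 3 was SNU-C1, with 1.89, 1.60 and 2.23. Around them the coverage of HCC1954 was already high, 2.78 and 4.33 on either side of the OXR1 peak and 6.58 and 5.87 on either side of the EXT1 peak.

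**Figure D3:**
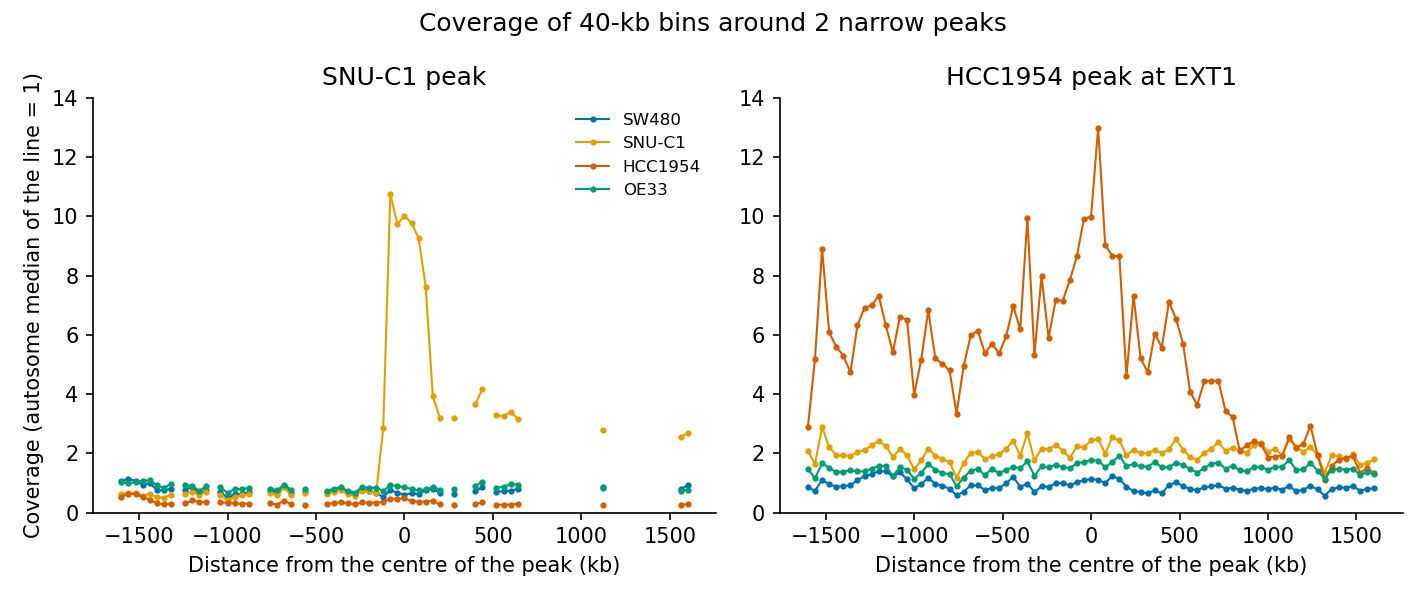
Coverage of usable 40-kb bins, with 1 for the autosome median of the line, against distance from the centre of the SNU-C1 peak without a protein-coding gene (left) and of the HCC1954 peak at EXT1 (right), in kb, with 1 line per cell line. The SNU-C1 peak rises to 10.8 from a low left flank and a high right flank, and the HCC1954 peak reaches 13.0 on a flank that is itself raised.

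Genes on 4 lists, 79 in all, were followed on chromosome 8, and 78 of them had usable bins (HSF1 had none). The first list holds 13 genes of 8p discussed as tumour suppressors. None of the 13 was called gained and 9 were called lost in HCC1954, where 65.9% of all 8p blocks were lost, and the list had a median relative coverage of 0.534 against 0.572 over the bins of 8p. At DLC1, a GTPase-activating protein, coverage was 0.268 in HCC1954 against 1.05 in SW480, 0.883 in SNU-C1 and 1.04 in OE33. Its relative coverage in usable bins (0.259) was the lowest of the list. DLC1 rested on 3 usable bins, TUSC3 on 4 and CSMD1 on 10. A bin under the coverage minimum in any line was not usable, and 203 bins of 8p were under it in HCC1954 alone. Lower bins of HCC1954 at these genes would therefore be missing, and DLC1 as lowest holds for usable bins only. LZTS1, a leucine zipper protein that acts in mitosis, had 0.344 in HCC1954 and 0.493 in SNU-C1 against 0.964 in SW480 and 0.882 in OE33. The death receptor genes TNFRSF10A and TNFRSF10B had 0.504 and 0.487 in HCC1954 and 0.603 and 0.617 in SNU-C1, with 0.883 to 1.08 in SW480 and OE33. The highest member in HCC1954 was MTUS1, which codes for a microtubule-associated protein, with 0.923 (relative coverage 0.817).

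SNU-C1 lost 4 of the 13 genes, among them MCPH1, LZTS1 and TNFRSF10A, and gained none, with a median relative coverage of 0.699 against 0.821 over the bins of 8p, where 10.98% of blocks were lost and 22.6% gained. In this line LZTS1 was lowest (0.559) and TUSC3, a subunit of the enzyme that attaches N-glycans, was highest (0.971). SW480 and OE33 lost none and had 3 and 6 members called gained, with medians of 1.43 and 1.30 against 1.27 and 1.28 over the bins of 8p, where 18.9% and 20.1% of blocks were gained, but no member had an own coverage above 1.22 in either line. There the lowest members were CSMD1, a membrane regulator of complement, in SW480 (1.12) and TUSC3 in OE33 (1.03), and the highest was LZTS1 in both (1.96 and 1.81). The calls in these lines thus rested on low coverage in HCC1954 and SNU-C1.

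All 20 genes of the 8p11-p12 amplicon list were gained in SNU-C1, where 22.6% of 8p blocks were. These genes are neighbours in 1 gained segment and some share bins, so they are not independent of each other. They had a median relative coverage of 2.53, against 0.821 over the bins of 8p, and own coverages from 2.06 at EIF4EBP1, a repressor of cap-dependent translation, to 3.21 at ZNF703, a transcriptional repressor. The relative coverage was lowest at ASH2L (2.29), a subunit of histone H3 lysine methyltransferase complexes, and highest at ADAM9 (2.96), a membrane metalloprotease. FGFR1, a receptor for fibroblast growth factors, had a coverage of 2.17 in SNU-C1, 0.542 in HCC1954, 1.11 in SW480 (1.10 and 1.13 in the replicates) and 1.03 in OE33. NSD3, a methyltransferase of histone H3, had 2.79, 0.638, 1.12 and 0.965 in the same order. FGFR1 and NSD3 were thus highest in SNU-C1 and lowest in HCC1954.

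HCC1954 split this list: 17 genes were lost and 3 gained, where 65.9% of all 8p blocks were lost and 11.6% gained. The lost genes all lay before the edge at 39.2 Mb, with PLPBP lowest (0.417), and the gained ones lay behind it. They were IDO1, which degrades tryptophan (coverage 2.60, relative coverage 3.18), KAT6A, a histone acetyltransferase (2.60), and IKBKB, a kinase that activates NF-κB (2.25). SNU-C1 had 2.48, 2.67 and 2.34 at the same 3 genes, against 0.877 to 1.04 in SW480 and OE33. Those 3 genes were the only ones of the list called lost in SW480 and OE33, where the medians of the list were 0.990 and 0.972, and where ADAM9 (1.19) and EIF4EBP1 (1.18) were highest and IDO1 lowest (0.353 and 0.365).

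Of 28 measured genes of 8q linked to growth or listed as oncogene candidates, HCC1954 gained 13 and lost 6, SNU-C1 gained 14 and lost none, OE33 gained 6 and lost 8, and SW480 lost 20 and gained none. Over all blocks of 8q, 48.3% were gained and 11.4% lost in HCC1954, 67.3% were gained in SNU-C1, 10.02% were gained and 43.0% lost in OE33, and 62.8% were lost in SW480. In HCC1954 the highest coverage was at EXT1 (8.68, relative coverage 5.23), EIF3H (6.92), a subunit of translation initiation factor 3, and RAD21 (6.50), a subunit of cohesin. CCNE2, a cyclin of the entry into S phase, and YWHAZ, a 14-3-3 adaptor protein, had 3.70 and 3.67 in HCC1954, 1.94 in SNU-C1 for both, 1.12 and 1.18 in SW480, and 0.990 and 1.15 in OE33. The 6 lost in HCC1954 were NDRG1, PTK2, AGO2, PTP4A3, PSCA and RECQL4, all beyond 134 Mb. PTP4A3, a membrane-bound phosphatase, had the lowest relative coverage (0.353, coverage 0.339) and rested on 2 usable bins, as RECQL4 did on 1 and PSCA on 3. NDRG1 and PTK2 had own coverages of 0.933 and 0.922 in HCC1954, which were 1.29 and 1.02 times SW480. With SW480 as the only reference, PTP4A3 alone of the 6 was below 0.667 (0.616). High and low levels of HCC1954 thus sat on the same arm.

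The same 6 genes were those gained in OE33. NDRG1, a gene induced by stress and differentiation, had a coverage of 1.97 in OE33, 1.76 in SNU-C1, 0.933 in HCC1954 and 0.779 in SW480 (0.813 and 0.745 in the replicates). AGO2, the slicing enzyme of RNA interference, had 1.47, 0.975, 0.445 and 0.588, and PTP4A3 had 1.61, 0.973, 0.339 and 0.550 in this order, which gave PTP4A3 the highest relative coverage of the list in OE33 (2.93). In SNU-C1 the highest member was E2F5, a transcription factor of the cell cycle, with 2.82 against 0.938 in HCC1954, 1.09 in SW480 and 0.865 in OE33, and the lowest was TCEA1 (relative coverage 1.19), an elongation factor. In SW480, PRKDC, a kinase of DNA repair, was highest (1.17) and TNFRSF11B, the decoy receptor osteoprotegerin, lowest (0.363). The medians of the list, 1.48 in SNU-C1, 1.35 in HCC1954, 0.799 in OE33 and 0.608 in SW480, stood beside 1.65, 1.45, 0.707 and 0.613 over the bins of 8q.

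Of 17 developmental transcription factors, 13 lie on 8q. There HCC1954 gained 11 and SNU-C1 gained 10, where 48.3% and 67.3% of 8q blocks were gained, and OE33 and SW480 lost 11 each, where 43.0% and 62.8% were lost. The medians of these 13 were 2.08, 1.78, 0.545 and 0.576, against 1.45, 1.65, 0.707 and 0.613 over the bins of 8q. Of the 4 on 8p, HCC1954 lost 3, SNU-C1 lost 1 and OE33 gained 3. Over all blocks of 8p, 65.9% were lost in HCC1954, 10.98% were lost in SNU-C1 and 20.1% were gained in OE33. The 3 gained in OE33 had own coverages near 1, 0.960 at GATA4, 1.06 at SOX7 and 1.08 at NKX2-6. GRHL2, a factor of epithelial identity, was highest in HCC1954 with a coverage of 4.58 against 2.31 in SNU-C1, 1.21 in SW480 and 1.17 in OE33, and OSR2 followed with 4.35. The lowest in HCC1954 was GATA4 (0.398, relative coverage 0.546), a factor of heart and gut endoderm that lies on 8p and had 0.960 in OE33. EYA1, a transcriptional coactivator of organ development, was highest in SNU-C1 (relative coverage 2.10), and NKX2-6, a homeobox gene on 8p, was lowest there (0.628) and highest in SW480 (1.497). TRPS1, a zinc finger repressor, was lowest in SW480 (0.343), with a coverage of 0.753 against 2.41 in SNU-C1, 1.33 in OE33 and 2.27 in HCC1954. In OE33, SOX7 was highest (2.004) and RUNX1T1, a corepressor, lowest (0.457).

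**Figure D4:**
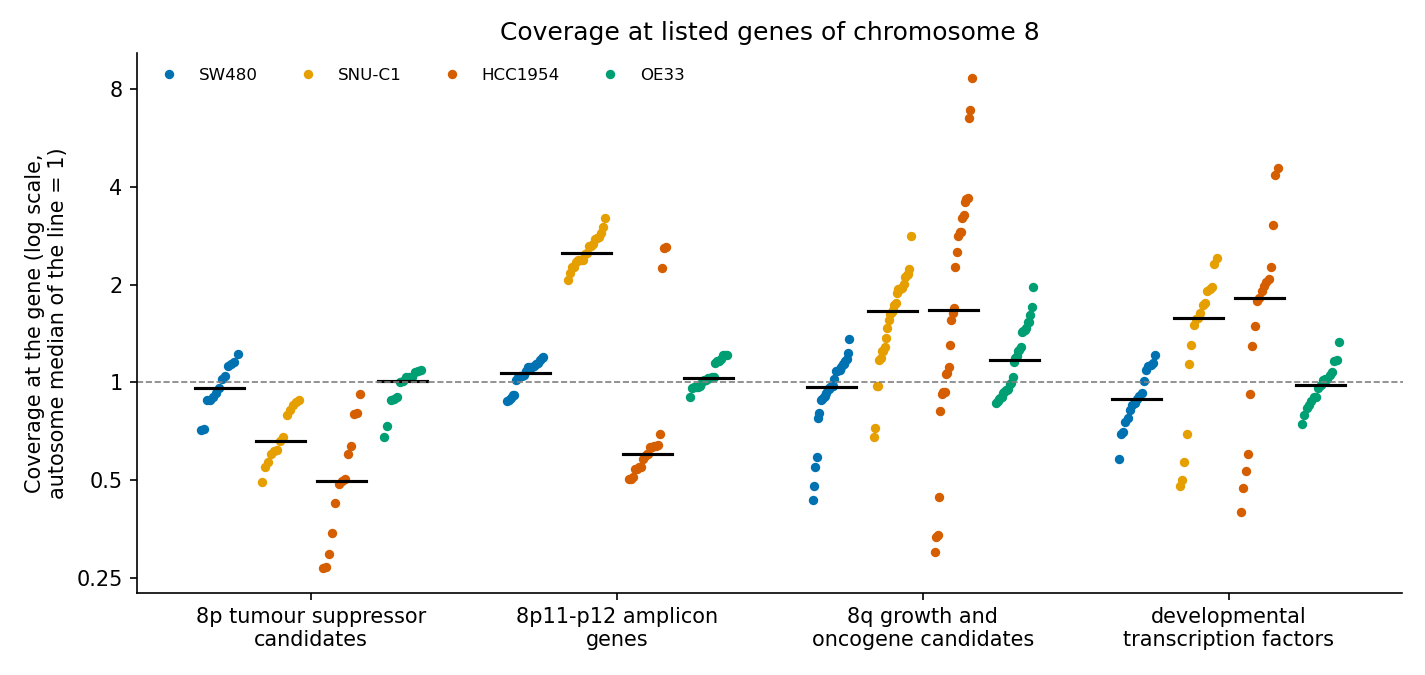
Coverage at the bins of each listed gene on a log scale, with 1 for the autosome median of the line, in 4 gene lists and 4 lines, where each point is a gene and bars are medians. SNU-C1 lies above all other lines at most 8p11-p12 genes, HCC1954 has the lowest 8p tumour suppressor candidates and the highest 8q genes, and 3 of its 8p11-p12 genes stand apart from the other 17.

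In the corrected maps, long-range contacts particular to one line were many in HCC1954 and few in the others. A pair of 200-kb blocks at least 2 Mb apart was called when its observed over expected contact frequency (O/E) was at least 4, at least 4 times that of the highest other line after 0.5 was added to both, and resting on at least 10 read pairs. Of 182386 block pairs tested on chromosome 8, HCC1954 had 243 (0.133%) against 0.0407% over all chromosomes, number 4 of 92 combinations of chromosome and line by share. SNU-C1 had 25 against 0.0399% of block pairs over all chromosomes, OE33 had 37 against 0.017%, and SW480 had 1 against 0.0102%, which for chromosome 8 were shares of 0.0137%, 0.0203% and 0.000548%. Each SW480 replicate alone in place of their pool gave 6 and 10. Only HCC1954 was thus clearly above the share of all its chromosomes.

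The calls of HCC1954 rested on deep counts. They held 16 to 6953 read pairs each, with a median of 176, and 102628 in all, although 10 were enough. A further 379 block pairs of HCC1954 passed on O/E and on the ratio but had fewer than 10 read pairs, the highest of these 9. Nearest to the ratio of 4 were a called pair at 4.003 and a pair at 3.9998 that was not called. Before iterative correction, 1074 block pairs passed in HCC1954, and they held 230 of the 243 (94.7%), which was 21.4% of the larger set. In this setting SNU-C1 had 654 in place of 25, SW480 6 and OE33 5, so that the small number in SNU-C1 held for corrected values only. Of the 243, 241 joined parts of 8q and 2 joined parts of 8p, none crossed the centromere, and the longest spanned 38.8 Mb.

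Touching block pairs formed 49 groups in HCC1954, 37 of them with at least 100 read pairs, and the 40-kb bin pair with the most read pairs in a group was taken as its join. The word names a place in the map, and whether DNA was joined there was not tested, since breakpoints from sequencing were not used here. Over the strongest block pair of each group, the median O/E of HCC1954 was 9.41, from 4.01 to 158, and no other line exceeded 2.23 in any of them. SNU-C1 had 11 groups, OE33 33 and SW480 1. Groups of HCC1954 held a median of 742 read pairs, against 14 in SNU-C1, 17 in OE33 and 12 in the one of SW480.

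**Figure D5:**
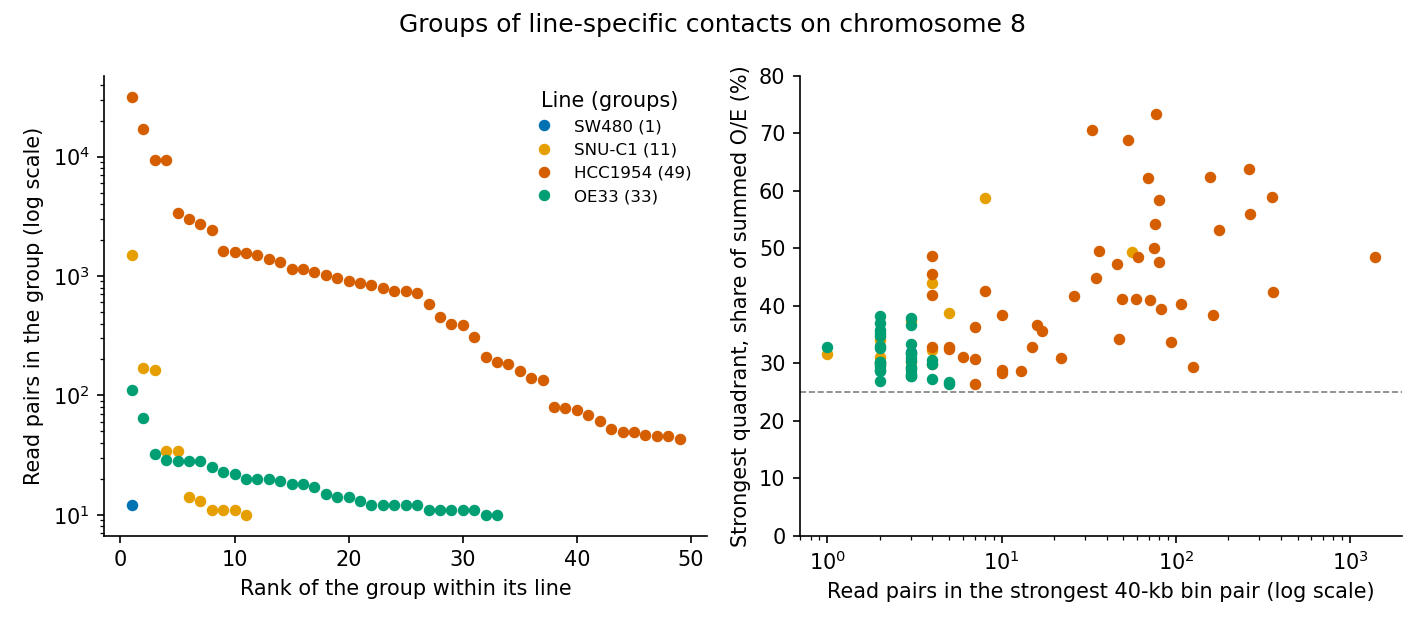
Read pairs of each group of line-specific contacts against its rank within the line (left), and the share of summed O/E in the strongest of 4 quadrants around the join against the read pairs of its strongest 40-kb bin pair (right), with log axes for read pairs and a dashed line at the even share of 25%. HCC1954 has 49 groups of up to 31781 read pairs and joins with shares up to 73.4%, whereas the groups of OE33 stay below 113 read pairs and below 38.2%.

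The strongest group of HCC1954 linked 107.76 Mb, inside OXR1 and ABRA, with 117.44 Mb, 174 kb from EIF3H, and held 31781 read pairs. In its top block pair, which 6953 read pairs supported (95% interval 6791 to 7118), O/E was 35.9, against 0.596 in SW480, 1.74 in SNU-C1 and 1.69 in OE33. A single pair of 40-kb bins there held 1392 read pairs (1320 to 1467), 158 times the value for its distance of 9.68 Mb, which the mean of all bin pairs reaches at 120 kb. The 2 ends of this contact lay at the narrow OXR1 peak and inside the gained segment that holds RAD21 and EXT1.

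The next group spread over 88 block pairs and 16927 read pairs, from 72.16 Mb in EYA1 to 106.52 Mb in ZFPM2, a cofactor of GATA factors. Its top block pair, starting at 72.2 and 106.4 Mb, had an O/E of 158 against 1.06, 0.656 and 0.474 in SW480, SNU-C1 and OE33. In 400-kb quadrants around the join, 62.4% of the summed O/E lay to the right of the first end and to the left of the second, where 25% would be even. Coverage of HCC1954, which includes the read pairs of the contact itself, was higher on the side of this contact at both ends. At the EYA1 end it went from 1.26 on the left to 2.53 on the right, and at the ZFPM2 end it went from 1.26 on the right to 1.85 on the left. A second contact with ZFPM2 came from ZNF704 at 81.68 Mb (1576 read pairs, 105.92 Mb, O/E of 29.0), with 73.4% of O/E in the same quadrant.

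Groups 3 and 4 led from the peaks at 107 to 108 Mb across the left-out stretch to 8q24. One linked OXR1 at 107.60 Mb with ADCY8, an adenylyl cyclase, at 131.88 Mb, with 9416 read pairs, and its top block pair had an O/E of 64.8 where no other line exceeded 2.04. The other linked ANGPT1 at 108.44 Mb with 132.28 Mb, 227 kb from ADCY8, with 9288 read pairs, a top O/E of 79.3 and no more than 2.23 elsewhere. In this one the contact lay to the left of both ends (58.9% of O/E), and coverage was higher on that side at both, 5.40 against 2.59 at ANGPT1 and 1.76 against 0.916 at the distal end.

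Of the remaining 5 of the 10 groups with the most read pairs, 4 were within 8q. TMEM74 at 109.72 Mb contacted NTAQ1 and FBXO32, a ubiquitin ligase component of muscle wasting, at 124.48 Mb (3352 read pairs). EIF3E, another subunit of initiation factor 3, at 109.28 Mb contacted CSMD3 at 114.36 Mb (2974), and SAMD12 at 119.40 Mb contacted both 107.84 Mb near ABRA (2436) and 133.76 Mb in TMEM71 and PHF20L1 (1614). On 8p, ADAM2 at 39.68 Mb contacted CHRNB3, a nicotinic receptor subunit, at 42.56 Mb, with 2712 read pairs, 361 of them in the strongest bin pair. Its top block pair had an O/E of 7.68, and no other line exceeded 0.799. At the ADAM2 end, next to the outer edge of the 8p gain, coverage rose from 1.22 on the left to 3.47 on the right, the side of the contact.

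A small stretch took part in many of these. The 3 Mb from 107 to 110 Mb were picked for their many ends, so their count is a description only. They hold 3.33% of usable 8q bins and 18 of 98 ends, and the 18 groups with these ends held 67154 of 102628 read pairs (65.4%). By 1-Mb steps, 107 to 108 Mb had the most ends (12), followed by 123 to 124 Mb (8) and by 125 to 126 and 132 to 133 Mb (5 each). No end lay between 43 and 70 Mb or beyond 134 Mb. At 10 of the listed genes an end came within 40 kb, 9 of 42 on 8q (21.4%) and 1 of 37 on 8p, against 16.2% of all 414 protein-coding genes of 8q and 4 of 285 of 8p: EIF3E, EXT1, ATAD2, MTSS1, EYA1, RUNX1T1, GRHL2 and ZFPM2 held one or had one next to them, and OSR2 and IDO1 were 35.7 and 39.8 kb away. The same bins can serve several ends, so ends are not independent of each other.

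Ends of HCC1954 were set against the usable bins of 8q in features that the calls did not use or used only through read counts. Relative coverage was at least 1.5 at 76 of 98 ends (77.6%) and in 48.2% of 8q bins, but a bin with more read pairs reaches the minimum of 10 more easily, and this part of the difference was not tested. Protein-coding genes overlapped 59 ends (60.2%) and 50.2% of bins, and the SW480 compartment score was above 0 at 44 ends (44.9%) and in 40.8% of blocks. A step in coverage of at least 1.5 times between 400 kb on the left and on the right occurred at 20 of 97 ends (20.6%) and at 164 of 2223 bins (7.38%). Coverage was higher on the side of the contact at 64 of 97 ends (66.0%), and at 52 of 73 (71.2%) in groups of at least 100 read pairs. Coverage includes the read pairs of the contact itself, here and at the joins named above. The part of these steps and sides that they make up was not tested. The strongest quadrant was left-right or right-left in 14 groups each, left-left in 10 and right-right in 11, so all 4 orientations occurred.

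In SNU-C1, 18 of the 25 block pairs linked 8p with 8q, as did 6 of the 37 of OE33, in contrast to none of the 243 of HCC1954. Measured blocks numbered 164 on 8p and 449 on 8q, and the share of tested block pairs between the arms was not computed. A call needed 10 read pairs, and between the arms HCC1954 had 98508 read pairs against 223232 in SNU-C1. The part of the contrast due to this was not tested. The strongest group of SNU-C1 was short, from 85.60 Mb in RALYL to 89.92 Mb, 580 kb from MMP16, a membrane-type matrix metalloprotease, with 1490 read pairs and a top O/E of 11.03, where no other line exceeded 1.57. One from 36.76 Mb in KCNU1 to 135.28 Mb near ZFAT crossed 98.5 Mb with 168 read pairs over 10 block pairs, and one from 79.20 Mb near PKIA, an inhibitor of protein kinase A, to 141.32 Mb in TRAPPC9 had 162 read pairs, an O/E of 24.04 and 58.8% of O/E in 1 quadrant. The 9.74-fold peak at 34.76 to 35.04 Mb was an end of 2 single block pairs of 34 read pairs each (95% interval 23.5 to 47.5), with 118.92 Mb in EXT1 and with 121.68 Mb in SNTB1. The first of the groups between the arms started in the gained 8p11-p12 stretch.

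The calls of OE33 and SW480, like most of those of SNU-C1, rested on few read pairs. In SNU-C1, 8 of 11 groups were single block pairs, the strongest bin pair held a median of 3 read pairs and the strongest quadrant a median of 34.1% of O/E. In OE33, 31 of 33 groups were single block pairs, no bin pair held more than 5 read pairs, and the strongest quadrant held a median of 30.2% of O/E (26.4% to 38.2%), near the even 25% and below the 41.2% of HCC1954. The 3 with the most read pairs led from 79.08 Mb near PKIA, 84.80 Mb near RALYL and 78.56 Mb near PEX2, a peroxisome assembly gene, to 113.16, 113.40 and 113 Mb at or near CSMD3, a large transmembrane protein gene, with 112, 65 and 32 read pairs. Among the 66 ends of OE33, 58 had a compartment score below 0 in SW480, the gene-poor side, against 54 of 98 ends of HCC1954. Over all blocks, 40.8% of 8q and 55.5% of 8p were above 0 in SW480. SW480 had a single call, between 50.20 Mb near PPDPFL and 110.16 Mb near TRHR, a receptor for thyrotropin-releasing hormone, with 12 read pairs (6.20 to 21.0).

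Between the arms, read pairs were scarcest in HCC1954. Pairs of 8p with 8q made up 1.66% of its read pairs of chromosome 8, against 3.06% in SNU-C1, 3.69% in SW480 (3.66% and 3.71% in the replicates) and 4.41% in OE33. Corrected for distance, the mean O/E between the arms was 0.608 in HCC1954, 0.694 in SW480, 0.755 in OE33 and 0.858 in SNU-C1. In each line this was lower than the median of the other autosomes with both arms usable (0.736, 0.782, 0.7995 and 1.02 in that order), with ranks of 11 to 13 among 17 chromosomes. Chromosome 8 was thus not at an extreme of these maps in any line.

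The stretch of 8p from 39.2 to 43.84 Mb holds the gain of HCC1954 at 39.6 to 43.4 Mb. Its corrected O/E with the rest of 8p and with 8q up to 126 Mb was lower in HCC1954 than in the other lines. With the rest of 8p, HCC1954 had a mean O/E of 0.511, SNU-C1 0.758, OE33 1.002 and SW480 1.07. With 72 to 126 Mb of 8q, HCC1954 had 0.446 against 0.946, 0.779 and 0.871 in the same order, and with 46.84 to 72 Mb it had 0.416 against 0.729, 0.659 and 0.546. In read pairs, which were not divided by depth, HCC1954 was not lowest on 8q up to 126 Mb. It had 16743 with 72 to 126 Mb, against 28759 in SNU-C1, 13573 in OE33 and 16547 in SW480. With 46.84 to 72 Mb it had 15008, against 39716, 13833 and 17216 in the same order. In contrast, 46.84 to 72 Mb had a higher O/E with the end of 8q beyond 131.52 Mb in HCC1954 (1.64) than in SW480 (1.29), OE33 (1.22) or SNU-C1 (0.905). In read pairs HCC1954 was lowest there, with 10419 against 18883 in SW480, 19030 in OE33 and 10576 in SNU-C1. Replicates of SW480 differed by at most 0.0147 in these O/E values.

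Compartments differed between lines at more blocks of 8p than of 8q when each arm had its own eigenvector, and at a similar share of both with 1 eigenvector for the whole chromosome (27.4% and 25.6%). Blocks were scored by the first eigenvector of the O/E correlation matrix of each arm, where values above 0 go with protein-coding genes. On 8q, 43.9% of 449 blocks were above 0 in HCC1954, 40.8% in SW480, 39.9% in OE33 and 37.4% in SNU-C1, and pairs of lines differed in sign at 13.8% to 16.9% of blocks. Over the 4 lines, 121 blocks of 8q (26.9%) did not have the same sign, against 28.8% of blocks over all autosomes. On 8p, 83 of 164 blocks (50.6%) did not, and SNU-C1 stood alone below 0 at 26 of them and alone above 0 at 11. Between SW480 replicates, the sign differed at 6 blocks of 8p (3.66%) and 11 of 8q (2.45%).

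The eigenvectors of 8p were also compared with coverage and with gene density. In SNU-C1, 35.4% of 8p blocks were above 0, against 55.5% in SW480, 44.5% in HCC1954 and 53.7% in OE33. Across the 164 blocks, which lie on one arm and share neighbours, the eigenvector of SNU-C1 had a correlation of 0.68 with the log2 of its relative coverage, and those of HCC1954, SW480 and OE33 had 0.55, 0.25 and 0.15. It also followed gene density less (0.34) than that of SW480 (0.52), OE33 (0.50) or HCC1954 (0.45), and its second eigenvector followed it about as well (0.36). With whichever of the first 3 eigenvectors followed gene density best in each line, chosen after seeing the data, 37.8% of 8p blocks had unlike signs, and with 1 eigenvector for the whole chromosome 27.4%. The high share on 8p thus depended on the eigenvector taken.

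Of the listed genes, 21 lay in blocks of unlike sign, 11 of the 35 with a score on 8p, where 50.6% of blocks were unlike, and 10 of 38 on 8q, where 26.9% were. On 8p these included MCPH1, MTUS1, LZTS1, TNFRSF10A, WRN, IDO1, GATA4, SOX7, NKX2-6 and EBF2, and SNU-C1 was below 0 at all of these but IDO1. All gene scores were those of the first eigenvector of the arm, which on 8p of SNU-C1 had a correlation of 0.68 with log2 relative coverage. The part of coverage in these signs was not tested. LZTS1 scored 0.98 in SW480 (0.91 and 0.89 in the replicates), -1.20 in SNU-C1, -0.45 in OE33 and -0.90 in HCC1954. On 8q, TRPS1 was below 0 in SW480 (-1.17) and OE33 (-0.31) and above 0 in SNU-C1 (0.82) and HCC1954 (0.95). TNFRSF11B was below 0 in SW480 alone (-0.66, against 0.89, 0.63 and 1.07 in SNU-C1, HCC1954 and OE33), and E2F5 was above 0 in SW480 (0.28) and SNU-C1 (0.90) and below it in HCC1954 (-1.005) and OE33 (-0.06). EXT1 was above 0 in SNU-C1 (0.27), HCC1954 (1.09) and OE33 (0.79), and in SW480 it was at 0 (0.00), with replicates at 0.05 and -0.04. PLAG1 and MOS share a block, where HCC1954 alone was below 0 (-0.23), and the other genes of unlike sign on 8q were RAD21, SOX17, TOX and HNF4G.

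Boundaries were found in similar number in every line, with 109 in SW480 (109 and 113 in the replicates), 122 in both SNU-C1 and HCC1954, and 106 in OE33. They were local minima of insulation, the log2 of contacts across a bin within 1 Mb relative to the mean of the chromosome, and those of a pair of maps were shared when at most 2 bins apart. In all 3 other lines, 68 of SW480, 69 of SNU-C1, 69 of HCC1954 and 71 of OE33 were found. Boundaries in no other line numbered 5 in SW480 (4.59%, against 5.24% over all autosomes), 10 in SNU-C1 (8.20% against 8.14%), 6 in OE33 (5.66% against 7.75%) and 19 in HCC1954 (15.6% against 7.31%). Of the 19, 16 were among the 92 of 8q. Replicate 1 of SW480 shared 107 of its 109 boundaries with replicate 2.

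Insulation of HCC1954 was also least like that of the other lines on 8q. Over the scored bins of 8q, which overlap in their windows, the correlation between lines was 0.67 to 0.70 for HCC1954 and 0.82 to 0.89 among the other 3, and 0.996 between the replicates. On 8p it was 0.78 to 0.84 for every pair of lines. HCC1954 shared 70.5% to 76.2% of its boundaries with any one other line. Near joins, within 200 kb of an end, lay 9 of the 19 boundaries that only HCC1954 had (47.4%) and 21 of its other 103 (20.4%). The deepest of the 19 was at 113.76 Mb in CSMD3, with a depth of 1.11 and an insulation of -1.18 against 0.02 in SW480, -0.04 in SNU-C1 and 0.34 in OE33.

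At other HCC1954 boundaries the level itself set the line apart. At 107.40 Mb in OXR1, beside the peak and the most used joins, insulation was -0.94 in HCC1954 and 0.24, 0.32 and 0.07 in SW480, SNU-C1 and OE33. At 111.44 Mb near KCNV1, a potassium channel gene, it was -0.69 against 0.21, 0.39 and 0.22. At 132.44 Mb near ADCY8 it was -0.20 against 0.74, 0.75 and 0.78, at 88.56 Mb in CNBD1 -0.32 against 0.15, 0.07 and 0.37, and at 72.08 Mb in EYA1 -0.10 against 0.32, 0.49 and 0.62. On 8p, at 39.20 Mb near ADAM32, where the lost run ends, it was -0.88 against -0.26, -0.42 and -0.42. Several of these places, at 72, 88.6 and 39.2 Mb, were edges of gained or lost segments of HCC1954. A boundary of SNU-C1 alone, at 41.8 Mb in KAT6A, had -0.71 against -0.25 in SW480, -0.35 in HCC1954 and -0.58 in OE33.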

How the data were processed

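In situ Hi-C of 4 cell lines was analysed from 6 maps. Per the labels and methods, chromatin was cut with MboI, reads were mapped with BWA-MEM to the hg19 assembly, duplicates were removed with Picard, and matrices were normalized by iterative correction. For tool versions and for the treatment of low-coverage bins, nothing is given in the sources used here. What the authors deposited is a signal, a contact frequency per pair of 40-kb bins after that correction, and whether the single maps of 3 lines pool libraries was not stated. Every column of values was used, and a further locus and some listed genes are not reported here.

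Bin factors were fitted in 45 iterations to pairs at least 5 Mb apart so that each value times its factors gave whole read pairs (within 0.02, up to 20.5), which held for at least 99.97% of values. The pooled SW480 map stood for its line. Expected values came from all chromosomes of a map, smoothed over 10% of the distance beyond 5 Mb. Blocks needed 3 of 5 usable bins. Segments were runs of 5 or more called blocks with gaps of at most 2. Eigenvectors used O/E up to 4. Boundaries used a 1-Mb window, a 200-kb delta and a depth of 0.1.

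The members, lists and thresholds were chosen with earlier results of these data known. Named genes were the highest and lowest of each list in each line, listed genes in segments and in blocks of unlike compartment, and genes at the 10 strongest joins of HCC1954 and the 3 strongest of each other line. Genes at narrow peaks and at boundaries, the peaks, the 107 to 110 Mb count and other listed genes were chosen after their values were seen. Genes were taken from GENCODE lifted to GRCh37. On simulated read pairs, 100% of 70 gained blocks and 100% of 47 boundaries were recovered, and doubled blocks had a median relative coverage of 1.80. These gains were planted in a single line, with the other lines flat and coverage divided by the known flat bins, so gains shared by lines were not tested. The simulated domains were of equal length without missing bins, and other settings were not tested. Of 200 simulated contacts, 194 held 10 or more read pairs, and 84.5% of these were recovered. The contacts were scored with the simulated bin factors and expected values taken as known, so those steps were not tested. Software was Numba 0.67.0, NumPy 2.4.6, Matplotlib 3.10.9, pandas 2.3.3 and SciPy 1.17.1 under Python 3.11.15.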

Additional observations from a re-analysis of the deposited data

How the results depend on the processing

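The replicate spread was the standard deviation of SW480 replicates 1 and 2, and it was applied to every line. It was 0.00017 for the ratio of 8q to 8p, where single SW480 replicates also counted as moved. Across 38 results and 195 alternatives, 77 values moved by less than the spread of their result, or 1.5 times for counts. Another 116 moved by more, 2 crossed to the other side of 1, and the cause was not tested. These were the relative coverage of 8p in SNU-C1, which went from 0.821 to 1.34 with the mean of bins, and that of 8q in OE33, which went from 0.707 to 1.008 with SW480 as the only reference. The ratio of 8q to 8p in relative coverage, 2.54 in HCC1954, 2.01 in SNU-C1, 0.551 in OE33 and 0.483 in SW480, became 2.15, 1.28, 0.665 and 0.561 with means of bins, 2.18, 1.51, 0.530 and 0.507 with the mean of the other lines, 2.24, 1.87, 0.637 and 0.505 with pairs at least 1 Mb apart, and 2.63, 2.005, 0.553 and 0.487 without a filter beyond 0. With SW480 as the only reference it was 2.31, 2.999 and 0.968 in SNU-C1, HCC1954 and OE33, and single SW480 replicates gave 0.4832 to 0.4835. At a threshold of 2, gained blocks were 26.1% in HCC1954, 17.3% in SNU-C1, 2.77% in OE33 and 0% in SW480, and lost ones 13.1%, 0%, 13.5% and 11.4% in SW480, SNU-C1, HCC1954 and OE33. At the looser threshold, gained blocks were 15.5% in SW480 and 24.5% in OE33, and lost ones 13.4% in SNU-C1. With SW480 as reference, lost blocks were 5.55% in SNU-C1 and 0.163% in OE33, and with own coverage also past the threshold gained blocks were 0% in SW480 and 1.79% in OE33 and lost ones 3.43% and 1.47%. Line-specific block pairs in SW480, SNU-C1, HCC1954 and OE33 numbered 6, 654, 1074 and 5 without iterative correction, 0, 7, 51 and 0 in blocks of 400 kb, 42, 170, 622 and 92 with no minimum of read pairs, 48, 49, 393 and 170 at an O/E and ratio of 3, and 0, 7, 110 and 3 at 6. A minimum of 20 read pairs left 0, 10 and 17 in SW480, SNU-C1 and OE33, the expected of chromosome 8 alone gave 3 in SW480 and 21 in OE33, and single SW480 replicates gave 6 to 10 in SW480. Blocks of unlike compartment on 8p were 62.2% with 400-kb blocks, 27.4% with 1 eigenvector, 44.5% with the expected of chromosome 8 and 37.8% with the eigenvector closest to gene density. On 8q these were 28.9% with 400-kb blocks, 25.6% with 1 eigenvector and 27.4% with the expected of chromosome 8 or with no ceiling on O/E, and single replicates gave 50.6% to 51.8% on 8p and 26.9% to 27.4% on 8q. Boundaries in no other line were 8 in SW480 and 10 in OE33 without correction, and 10 in OE33 with a 480-kb window. Read pairs between the arms were 19.99% in SW480, 21.2% in SNU-C1, 21.4% in OE33 and 10.7% in HCC1954 among pairs at least 10 Mb apart, and 3.18%, 2.64% and 4.59% of corrected contact frequency in SNU-C1, HCC1954 and OE33. No paired analysis was possible because SW480 is the one line whose replicates are given as separate maps. Single long-range bin pairs rest on few read pairs, which limits the contacts of OE33, SW480 and SNU-C1 most.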
